A study of Mus musculus with 6 samples.

Results

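The glucocorticoid receptor gene Nr3c1 and 9 genes that glucocorticoid hormones are known to induce were followed in mononuclear cells of skeletal muscle from tumour-bearing mice. The 10 genes were chosen by symbol (Nr3c1, Tsc22d3, Fkbp5, Sgk1, Ddit4, Zbtb16, Cebpd, Errfi1, Mt1 and Mt2), and all 10 were found among the 17030 genes of the deposited table. They were chosen with values of this same comparison in view, so their differences between genotypes are given as a description, with no test. All 10 also passed the filter on low values (1 CPM or more in 3 or more libraries), and each was above 1 CPM in every library. CPM is the number of reads of a gene per 1000000 reads assigned to genes.

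RNA came from 6 male C57BL/B6 mice with Lewis lung carcinoma (LLC), a transplanted tumour used to model cancer cachexia, the wasting of muscle in cancer. The 3 mice of the first group had the genotype Pax7 Cre ErT x IKKbfl/fl, in which a tamoxifen-activated Cre recombinase acts in cells that express Pax7, the transcription factor of muscle satellite cells, and can delete floxed IKKb, a kinase upstream of NF-kB. The 3 control mice had the genotype IKKbfl/fl, without Cre. Every mouse of both groups bore the tumour, carried the floxed alleles and received tamoxifen on days 10 to 14 after tumour cell injection, so there was no mouse without tumour, without tamoxifen or with Cre alone. The ages, the hour of tissue collection and any hormone level are not given in the sources used here.

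Glucocorticoids are steroid hormones of the adrenal cortex that bind a receptor held in the cytoplasm by heat shock chaperones. The bound receptor moves to the nucleus and, at palindromic DNA elements, raises the transcription of genes such as Tsc22d3 and Fkbp5 in many cell types. In skeletal muscle the hormones are known for slowing protein synthesis and speeding protein breakdown, and in inflammation for restraining NF-kB.

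Promoter sequences are shown for the member with a full receptor element and for the metallothionein genes with their metal response cores. Windows from 250 bases before to 50 bases after annotated starts, credited to RefSeq on build GRCm38.p6, were at hand for 7 of the 10 genes, in 15 windows: 6 of Sgk1, 3 of Tsc22d3, 2 of Errfi1 and 1 each of Fkbp5, Ddit4, Mt1 and Mt2. Both strands were searched for the glucocorticoid response element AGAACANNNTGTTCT, which reads the same on both strands, for its single arm AGAACA, which the full element contains, and for the metal response core, TGCACNC or TGCGCNC. The full element was found in 1 of the 15 windows, which is 1 of the 6 of Sgk1, and in 3 of 32851 windows of all genes (0.00913%). It begins 189 bases before the start of that window's transcript and is printed in capitals. The Mt1 and Mt2 windows are shown with the metal response cores in capitals. Mt1 holds 3 of them and Mt2 holds 4, where 25.7% of all windows hold at least 1, 1.97% at least 3 and 0.517% at least 4. The core was also found once in the window of Ddit4 and once in another window of Sgk1, so it was in 4 of the 15 windows.
Sgk1, chr10:21993640-21993939, plus strand: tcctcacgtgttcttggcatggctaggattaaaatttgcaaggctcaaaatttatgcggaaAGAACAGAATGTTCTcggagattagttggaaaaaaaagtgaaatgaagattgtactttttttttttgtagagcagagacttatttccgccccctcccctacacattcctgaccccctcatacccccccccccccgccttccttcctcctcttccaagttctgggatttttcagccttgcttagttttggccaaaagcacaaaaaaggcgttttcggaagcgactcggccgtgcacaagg
Mt1, chr8:94178839-94179138, plus strand: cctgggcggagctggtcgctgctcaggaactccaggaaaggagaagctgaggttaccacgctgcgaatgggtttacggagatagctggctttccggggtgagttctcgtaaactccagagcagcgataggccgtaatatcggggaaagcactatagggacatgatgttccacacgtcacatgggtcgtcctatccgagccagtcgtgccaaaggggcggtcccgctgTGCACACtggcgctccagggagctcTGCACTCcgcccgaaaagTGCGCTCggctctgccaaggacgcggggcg
Mt2, chr8:94172368-94172667, plus strand: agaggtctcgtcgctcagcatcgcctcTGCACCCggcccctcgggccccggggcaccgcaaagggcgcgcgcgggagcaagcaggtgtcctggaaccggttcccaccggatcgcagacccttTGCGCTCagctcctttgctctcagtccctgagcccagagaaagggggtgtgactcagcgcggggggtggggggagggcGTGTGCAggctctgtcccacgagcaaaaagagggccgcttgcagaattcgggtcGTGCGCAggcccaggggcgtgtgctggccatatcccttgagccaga

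The single arm AGAACA was found in 4 of the 15 windows, 3 of Sgk1 and 1 of Tsc22d3, and in 19.0% of all windows. The windows of Fkbp5, Ddit4, Errfi1, Mt1 and Mt2 hold neither the full element nor the arm. Elements outside the windows, or with any other letters, were not searched for, so an absence describes only these windows. A match in a window is a description of its letters, and binding was not measured here.

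Depth, estimated from the smallest step between values, was 4054000 to 13355000 assigned reads a library. Control replicate 3 was the shallowest library and stood apart from the others, at 51.6 on the first principal component against -17.0 to 0.20 in the other 5, with haemoglobin genes at 12.6% of its CPM against 1.84% to 4.83% in the other 5. For the 10 genes and the genes named from the pathway lists, the value without it is given where leaving it out moved the log2 difference by over 1.5 times. The targeted gene Ikbkb averaged 50.8 ± 2.23 CPM in Pax7 Cre ErT mice and 52.5 ± 4.397 CPM in control mice (SD, n = 3 each), in a mixture where satellite cells are only a part. Defining markers of endothelial, mural, fibro-adipogenic, macrophage and satellite cells were all present, and the 5 lymphocyte markers in the table summed to 5.77 to 26.05 CPM in Pax7 Cre ErT mice and 3.51 to 48.9 CPM in control mice. In such a mixture, fewer cells of a type and less RNA per cell cannot be told apart.

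Fitted with limma on log2(CPM + 1) over 14763 genes, 1 gene passed at a Benjamini-Hochberg adjusted p under 0.05 (0.00677% of those tested), Zfp697, and it is not among the 10. With limma 815 genes (5.52%) had an unadjusted p under 0.05, 676 higher (4.58%) and 139 lower (0.942%), against 365 higher and 310 lower with TMM factors, a rescaling by the trimmed mean of the log ratios. With array weights 1121 (7.59%) did. Of the 10 genes 5 had a higher mean and 5 a lower mean in Pax7 Cre ErT mice on the log2 scale, or 4 and 6 with TMM factors or haemoglobin-free scaling, where Sgk1 is the gene that crosses 0, and 3 and 7 with quantile normalization, where Sgk1 and Mt2 do. Their median log2 difference was -0.03, against 0.09 for all tested genes, of which 68.0% were above 0. In 3 of the 10 the groups did not overlap, all 3 with lower values in Pax7 Cre ErT mice, where 2.28% of tested genes were lower without overlap and 8.69% were higher without overlap. Nothing is read from that count, since the genes were chosen in view of it.

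The receptor itself differed little. Nr3c1, which encodes the glucocorticoid receptor (chromosome 18 of mm10, 39410545 to 39519421, minus strand), measured 564, 603 and 644 CPM in Pax7 Cre ErT replicates 1, 2 and 3, against 656, 611 and 439 CPM in control replicates 1, 2 and 3. The groups overlapped, and control replicate 3 was the lowest of the 6 libraries. The means were 604 ± 40.1 CPM in Pax7 Cre ErT mice and 569 ± 115 CPM in control mice (SD, n = 3 each), with a log2 difference of 0.11 (SE 0.18). Without control replicate 3 the log2 difference was -0.07.

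Tsc22d3, Fkbp5 and Ddit4 were the 3 genes with lower values in every Pax7 Cre ErT library than in any control library. Tsc22d3 encodes GILZ, a leucine zipper protein that glucocorticoids induce and that restrains NF-kB and AP-1 (chromosome X, 140539529 to 140600522, minus strand). It measured 519, 641 and 488 CPM in Pax7 Cre ErT replicates 1, 2 and 3, against 779.6, 868 and 942 CPM in control replicates 1, 2 and 3. The highest Pax7 Cre ErT library, replicate 2, lay below the lowest control library, replicate 1. The log2 difference was -0.66 (SE 0.16), a ratio of 0.635, and it ran from -0.77 to -0.58 when single libraries were left out.

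Fkbp5 encodes FKBP51, a co-chaperone that lowers the receptor's affinity for hormone and is itself induced by the receptor, a negative feedback (chromosome 17, 28398753 to 28486149, minus strand). It measured 33.1, 42.5 and 49.1 CPM in Pax7 Cre ErT replicates 1, 2 and 3, against 49.3, 71.5 and 92.3 CPM in control replicates 1, 2 and 3. Pax7 Cre ErT replicate 3 and control replicate 1 lay next to each other, and the gap between the groups there was smaller than the counting error of up to 6.44% (SD) that the estimated reads of this gene carry. The log2 difference was -0.73 (SE 0.23), a ratio of 0.602. It was -0.52 without control replicate 3, and -0.37 without Pax7 Cre ErT replicate 1 and control replicate 3 together, the libraries with the lowest and highest values.

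Ddit4 encodes REDD1, an inhibitor of mTORC1 that glucocorticoids, hypoxia and DNA damage induce (chromosome 10, 59949675 to 59951770, minus strand). It measured 67.7, 86.4 and 55.8 CPM in Pax7 Cre ErT replicates 1, 2 and 3, against 114.7, 105.1 and 95.97 CPM in control replicates 1, 2 and 3. Its order among the control libraries was the reverse of that of Tsc22d3 and Fkbp5, with control replicate 1 highest and control replicate 3 lowest. The log2 difference was -0.60 (SE 0.17), a ratio of 0.659, with values from -0.76 to -0.45 when single libraries were left out.

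**Figure D1:**
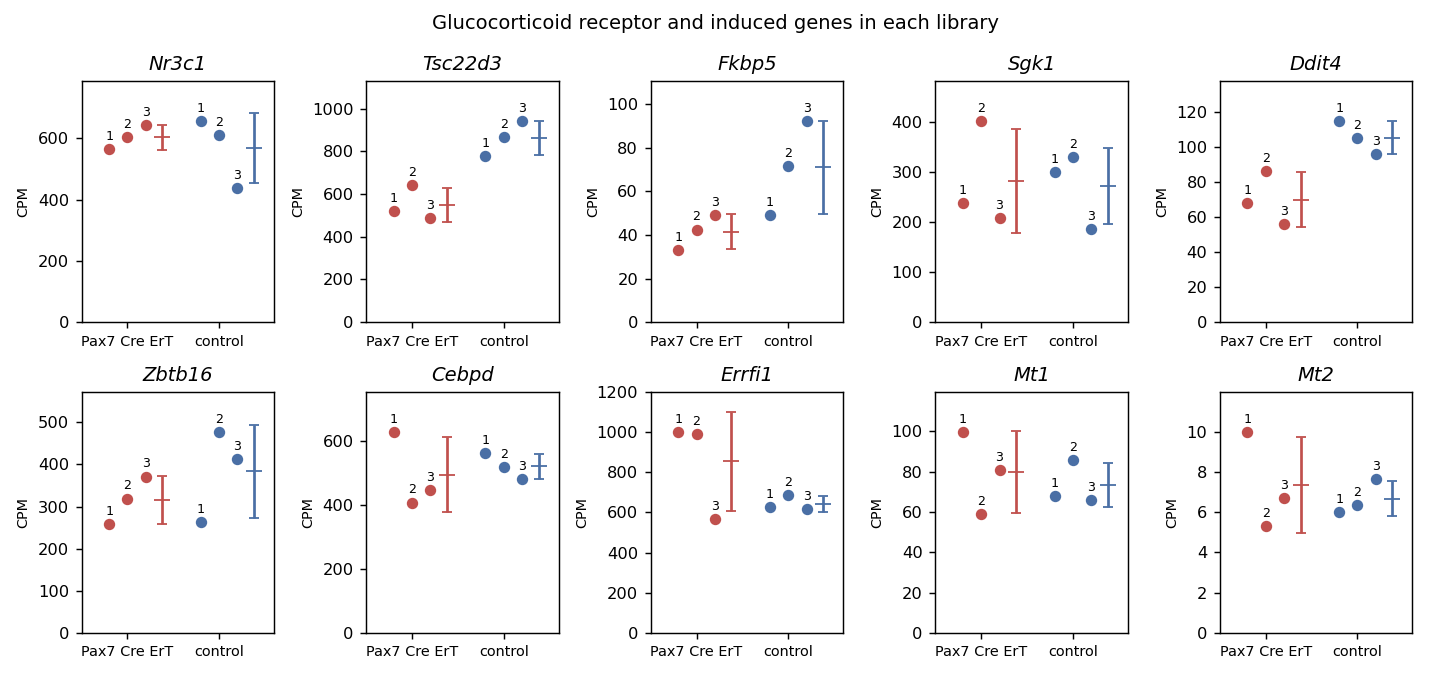
CPM of the 10 genes in each library, with the vertical axis starting at 0 in every panel. Points are libraries with their replicate number, and the bar beside each group is the mean with the SD of 3 mice. The Pax7 Cre ErT and control points do not overlap for Tsc22d3 (488 to 641 against 779.6 to 942 CPM), Fkbp5 (33.1 to 49.1 against 49.3 to 92.3 CPM) and Ddit4 (55.8 to 86.4 against 95.97 to 114.7 CPM), and they overlap for the other 7 genes.

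The other induced genes for regulators overlapped between the groups. Zbtb16 encodes the transcriptional repressor PLZF (chromosome 9, 48651797 to 48836225, minus strand). It measured 258, 319 and 371 CPM in Pax7 Cre ErT replicates 1, 2 and 3, against 262, 477 and 412 CPM in control replicates 1, 2 and 3. Control replicate 1 lay with the lowest Pax7 Cre ErT library, and the log2 difference was -0.25 (SE 0.23). It was -0.07 without control replicate 2, -0.11 without Pax7 Cre ErT replicate 1 and -0.50 without control replicate 1.

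Sgk1, the serum and glucocorticoid regulated kinase (chromosome 10, 21882184 to 21999902, plus strand), is the gene whose window holds the full element printed above. It measured 238, 402 and 209 CPM in Pax7 Cre ErT replicates 1, 2 and 3, against 299.9, 330.5 and 187 CPM in control replicates 1, 2 and 3. The highest library and the second lowest were both of the Pax7 Cre ErT group. The log2 difference was 0.04 (SE 0.27), with values from -0.25 without Pax7 Cre ErT replicate 2 to 0.22 without Pax7 Cre ErT replicate 3, and it was -0.21 without control replicate 3. Its within-group SD on the log2 scale, 0.47, was the highest of the 10 genes, against a median of 0.23 over all tested genes.

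Cebpd encodes C/EBP delta, a transcription factor of the acute phase and of adipocyte differentiation (chromosome 16, 15887286 to 15889545, plus strand). It measured 629, 408 and 447 CPM in Pax7 Cre ErT replicates 1, 2 and 3, against 562, 521 and 483 CPM in control replicates 1, 2 and 3. Both the highest and the lowest library were of the Pax7 Cre ErT group, and the log2 difference was -0.10 (SE 0.18). It was -0.29 without Pax7 Cre ErT replicate 1, 0.03 without Pax7 Cre ErT replicate 2 and -0.15 without control replicate 3. In GENCODE M21, 562 exonic bases of Cebpd are shared with Spidr on the opposite strand. Spidr averaged 42.5 ± 4.77 CPM in Pax7 Cre ErT mice and 46.8 ± 3.96 CPM in control mice (SD, n = 3 each), and whether the authors' counting used the strand is not given in the sources used here.

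Errfi1 encodes MIG6, a feedback inhibitor of the EGF receptor (chromosome 4, 150853796 to 150868889, plus strand). It measured 1001, 993 and 568 CPM in Pax7 Cre ErT replicates 1, 2 and 3, against 626, 688 and 615 CPM in control replicates 1, 2 and 3. Pax7 Cre ErT replicates 1 and 2 lay above every control library and replicate 3 below every control library. The log2 difference was 0.36 (SE 0.22), the largest positive one of the 10. It was 0.63 without Pax7 Cre ErT replicate 3 and 0.23 without replicate 1 or 2 of that group.

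The metallothioneins, small cysteine-rich proteins that bind zinc and copper and are induced by metals as well as by glucocorticoids, overlapped between the groups. Mt1 (chromosome 8, 94179089 to 94180327, plus strand) measured 99.8, 59.2 and 80.8 CPM in Pax7 Cre ErT replicates 1, 2 and 3, against 67.9, 85.95 and 66.1 CPM in control replicates 1, 2 and 3. Its neighbour Mt2 (94172618 to 94173567, plus strand) measured 9.99, 5.32 and 6.72 CPM in Pax7 Cre ErT replicates 1, 2 and 3, against 6.02, 6.33 and 7.65 CPM in control replicates 1, 2 and 3. For both genes Pax7 Cre ErT replicate 1 was the highest of the 6 libraries and Pax7 Cre ErT replicate 2 the lowest, while the 3 control libraries stood in different orders. The log2 differences were 0.10 (SE 0.19) for Mt1 and 0.09 (SE 0.24) for Mt2, and both were below 0 without Pax7 Cre ErT replicate 1, at -0.07 and -0.13. Without control replicate 3 they were 0.03 for Mt1 and 0.18 for Mt2.

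Mt1 exceeded Mt2 in every library. The ratio of Mt1 to Mt2 in CPM was 9.99, 11.1 and 12.0 in Pax7 Cre ErT replicates 1, 2 and 3, against 11.3, 13.6 and 8.65 in control replicates 1, 2 and 3. Their transcripts share identical runs of at most 20 bases. Mt2 rested on an estimated 31 to 95 reads a library, a counting SD of 10.3% to 17.96%, and 432 of its exonic bases are shared with an antisense gene, Gm45774, that is not in the table used here.

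**Figure D2:**
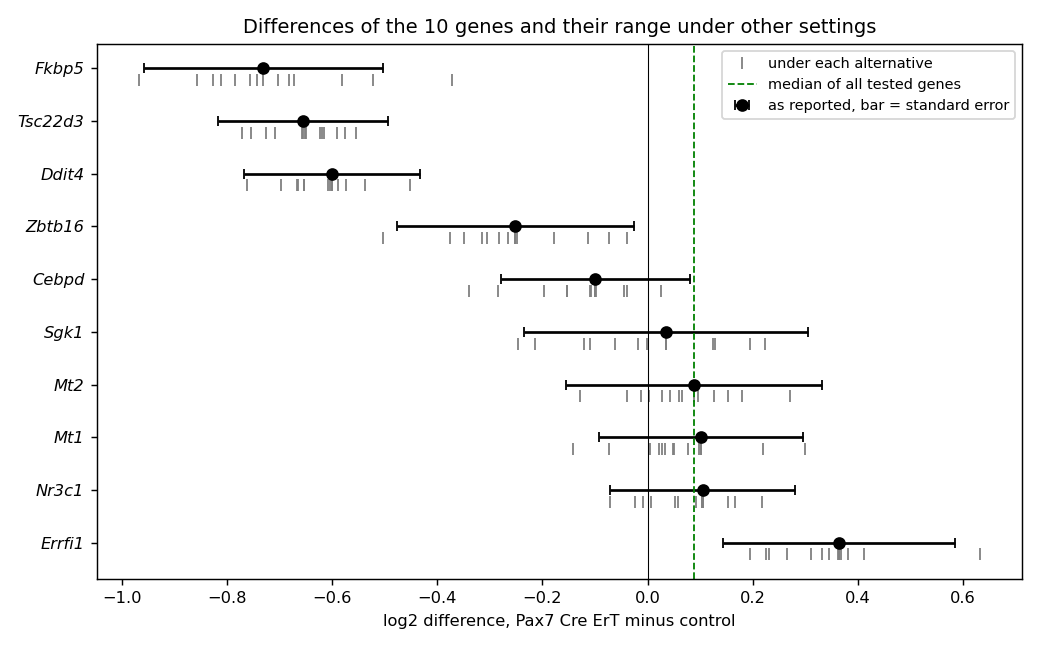
Log2 differences (Pax7 Cre ErT minus control, horizontal axis) of the 10 genes with their standard errors. Grey ticks are the values under each of 14 alternatives, and the dashed line is the median of all tested genes, 0.09. Fkbp5, Tsc22d3 and Ddit4 stay below 0 under each alternative, and so does Zbtb16, while Sgk1, Mt1, Mt2, Nr3c1 and Cebpd have ticks on both sides of 0.

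Per length of exon, Tsc22d3, Errfi1 and Cebpd were the most abundant of the 10 genes and Fkbp5 and Mt2 the least. In CPM per kb, Tsc22d3 averaged 221 ± 32.4 in Pax7 Cre ErT mice and 347 ± 32.6 in control mice, Errfi1 264 ± 76.6 and 199 ± 12.1, and Cebpd 219 ± 52.2 and 231 ± 17.5 (SD, n = 3 each). The ranges of these 3 over the 6 libraries overlapped, so their order is not settled. Mt1 came next, overlapping Cebpd, at 147 ± 37.5 CPM per kb in Pax7 Cre ErT mice and 135 ± 20.3 in control mice, and every one of its libraries lay above every library of Nr3c1, at 95.4 ± 6.34 and 89.9 ± 18.1. Sgk1 at 69.8 ± 25.7 and 67.2 ± 18.6, Zbtb16 at 61.8 ± 11.1 and 75.1 ± 21.6, and Ddit4 at 41.5 ± 9.17 and 62.5 ± 5.55 overlapped in turn with their neighbours. Fkbp5 at 11.7 ± 2.26 in Pax7 Cre ErT mice and 20.05 ± 6.06 in control mice, and Mt2 at 14.4 ± 4.70 and 13.1 ± 1.695, were the lowest and did not reach the range of Ddit4. Lengths are the union of RefSeq-matched GENCODE exons within the span the table gives.

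**Figure D3:**
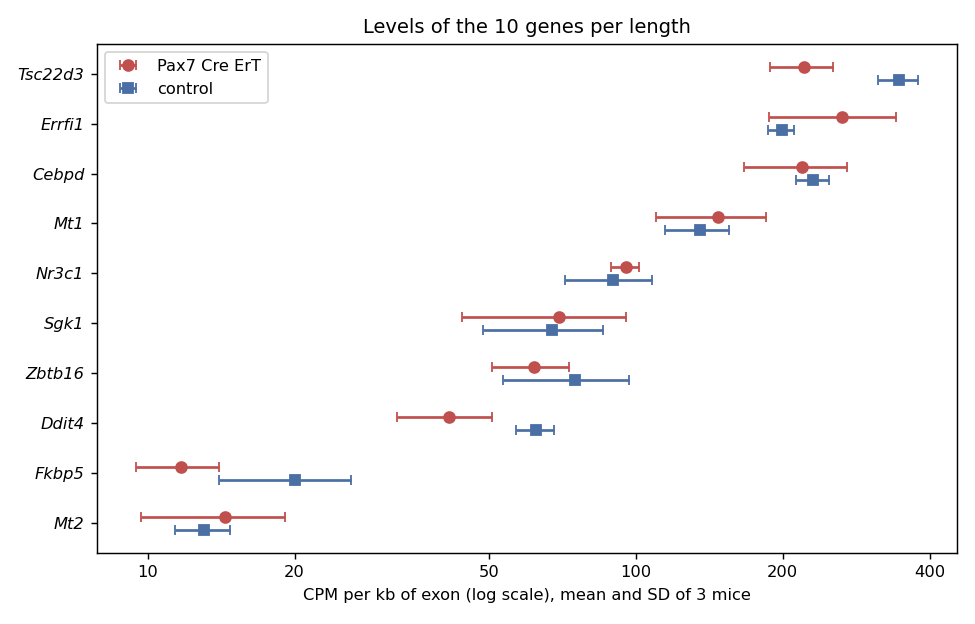
Level of each gene in CPM per kb of exon on a log axis, as the mean and SD of 3 mice per group. Tsc22d3, Errfi1 and Cebpd lie between 199 and 347 CPM per kb, and Fkbp5 and Mt2 between 11.7 and 20.05 CPM per kb.

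The profiles over the 6 libraries did not follow a single pattern. Pax7 Cre ErT replicate 1 was the highest library for 4 genes (Cebpd, Errfi1, Mt1 and Mt2) and the lowest for 2 (Fkbp5 and Zbtb16). Control replicate 3 was the highest for Tsc22d3 and Fkbp5 and the lowest for Nr3c1 and Sgk1. Pax7 Cre ErT replicate 3 was the highest for 0 genes and the lowest for 3, Tsc22d3, Ddit4 and Errfi1. On the centred log2 scale, Fkbp5 spanned the widest range, -0.67 to 0.78, and Nr3c1 lay between -0.40 and 0.17.

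**Figure D4:**
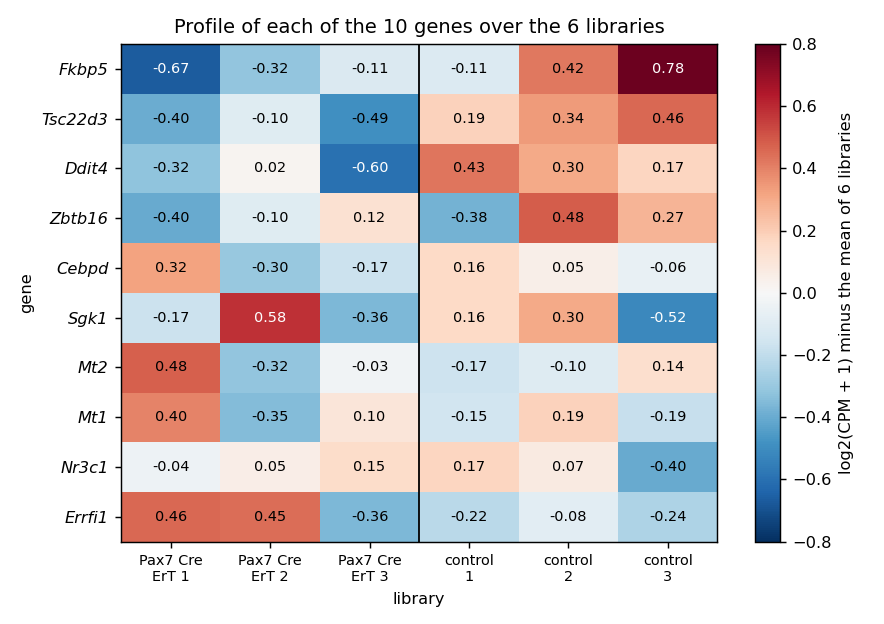
Log2(CPM + 1) of each of the 10 genes in each library minus the gene's mean over the 6 libraries, Pax7 Cre ErT libraries at the left and control libraries at the right. Fkbp5 runs from -0.67 in Pax7 Cre ErT replicate 1 to 0.78 in control replicate 3, and the metallothionein rows are highest in Pax7 Cre ErT replicate 1, at 0.40 and 0.48.

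The genes most like Tsc22d3 were named by the smallest root mean square difference between centred log2(CPM + 1) profiles over the 6 libraries, among 14753 other genes. They were Ccdc169 (0.103), Gm27252 (0.109) and Aqp11 (0.114), where the median of all genes was 0.457. Ccdc169, the closest, measured 0.841, 1.498 and 0.814 CPM in Pax7 Cre ErT replicates 1, 2 and 3, against 2.01, 2.02 and 1.97 CPM in control replicates 1, 2 and 3. These values are near the 1 CPM of the filter, and below it in Pax7 Cre ErT replicates 1 and 3. For Fkbp5 they were Ifitm10 (0.126), Il18rap (0.147) and Cd59a (0.148), where the median was 0.574. Cd59a, which protects cells from complement, measured 35.8, 47.2 and 54.3 CPM in Pax7 Cre ErT replicates 1, 2 and 3, against 72.4, 80.8 and 110.5 CPM in control replicates 1, 2 and 3. All these genes were picked for their match out of 14753, so their lower values in Pax7 Cre ErT mice follow from the choice.

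Other genes of the pathway were read in 4 lists of 61 different genes, of which 59 were tested. With limma 0 of the 59 passed at an adjusted p under 0.05 (lowest adjusted p = 0.891), and 7 had an unadjusted p under 0.05, which 5.52% of all tested genes had. The groups did not overlap in 5 of the 59 with lower values and in 4 with higher values, against 2.28% and 8.69% of all tested genes. The lists were chosen with earlier results of these data known, so nothing is read from these counts. The counts with array weights stand beside 7.59% of all tested genes. Each list's median is a description beside the 0.09 of all tested genes.

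Among 19 genes for partners of the receptor (chaperones, the enzymes that activate or inactivate the hormone, and coregulators), 18 were tested, 15 with a higher and 3 with a lower mean (14 and 4 with TMM factors or quantile normalization), and a median log2 difference of 0.17 (0.08 with TMM factors). None passed in either direction, and 2 had an unadjusted p under 0.05 with limma and 1 with array weights. Smarca4, the ATPase BRG1 of the SWI/SNF remodelling complex, measured 90.4, 78.8 and 78.2 CPM in Pax7 Cre ErT replicates 1, 2 and 3, against 59.5, 72.1 and 61.4 CPM in control replicates 1, 2 and 3, without overlap (log2 difference 0.35, adjusted p = 0.891 with limma). Nr3c2, the mineralocorticoid receptor, which also binds glucocorticoids, measured 141, 136 and 128 CPM in Pax7 Cre ErT replicates 1, 2 and 3, against 114, 122 and 84.1 CPM in control replicates 1, 2 and 3, also without overlap. Its log2 difference was 0.35 (adjusted p = 0.896 with limma), and 0.19 without control replicate 3. Of all tested genes 8.69% were higher without overlap. The acetyltransferase gene Crebbp averaged 197 ± 16.4 CPM in Pax7 Cre ErT mice and 162 ± 20.6 CPM in control mice, and the chaperone gene Hsp90aa1 139.99 ± 7.10 and 113 ± 26.2 CPM (SD, n = 3 each), both overlapping between the groups. Control replicate 3 was the lowest library for Nr3c2, Crebbp and Hsp90aa1. Without it the log2 difference of Hsp90aa1 was 0.13, against 0.33 with it.

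Among 25 other genes that glucocorticoids induce, all 25 were tested, 14 with a higher and 11 with a lower mean. These counts were 7 and 18 with TMM factors, 11 and 14 with haemoglobin-free scaling, and 12 and 13 with quantile normalization. The median log2 difference was 0.04 (-0.05 with TMM factors, -0.008 with haemoglobin-free scaling and -0.02 with quantile normalization). None passed in either direction, and 2 had an unadjusted p under 0.05 with limma, both lower, and 4 with array weights. Klf15, a Kruppel-like factor that the receptor induces in muscle, measured 49.5, 47.8 and 55.2 CPM in Pax7 Cre ErT replicates 1, 2 and 3, against 61.3, 87.8 and 98.2 CPM in control replicates 1, 2 and 3. Its groups did not overlap (log2 difference -0.66, SE 0.18, adjusted p = 0.891 with limma, 0.440 to 0.999 under the alternatives). The kinase gene Map3k6 measured 44.6, 66.3 and 64.7 CPM in Pax7 Cre ErT replicates 1, 2 and 3, against 89.3, 111.5 and 72.0 CPM in control replicates 1, 2 and 3, also without overlap (-0.63, adjusted p = 0.891 with limma). Hif3a averaged 5.07 ± 1.26 CPM in Pax7 Cre ErT mice and 9.57 ± 5.11 CPM in control mice, with 15.4 CPM in control replicate 2 (SD, n = 3 each). The log2 difference of Hif3a was -0.72, and -0.35 without that library. Dusp1, a phosphatase that switches off MAP kinases, averaged 834 ± 50.7 CPM in Pax7 Cre ErT mice and 658 ± 135 CPM in control mice (SD, n = 3 each), with groups that overlapped (log2 difference 0.36, adjusted p = 0.896 with limma).

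Of 12 muscle atrophy genes, all tested, 7 had a higher and 5 a lower mean. These counts were 6 and 6 with TMM factors or haemoglobin-free scaling, and 5 and 7 with quantile normalization. The median log2 difference was 0.06 (-0.02 with TMM factors), 0 passed, and 2 had an unadjusted p under 0.05 with limma and with array weights. Bnip3, a mitophagy receptor that hypoxia also induces, measured 84.2, 57.1 and 97.1 CPM in Pax7 Cre ErT replicates 1, 2 and 3, against 139, 142 and 134 CPM in control replicates 1, 2 and 3 (log2 difference -0.83, adjusted p = 0.891 with limma). The groups of Bnip3 did not overlap, and Klf15 is the other gene of this list below an unadjusted p of 0.05. The ubiquitin ligase gene Fbxo32, the atrogin-1 of muscle wasting, averaged 76.6 ± 12.6 CPM in Pax7 Cre ErT mice and 63.5 ± 15.9 CPM in control mice, and the transcription factor gene Foxo1 83.7 ± 6.68 and 70.6 ± 13.6 CPM (SD, n = 3 each). Without control replicate 3 the log2 difference of Fbxo32 was 0.064, against 0.29 with it, and that of Foxo1 was 0.096, against 0.26 with it.

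Of 10 metal response genes other than Mt1 and Mt2, 9 were tested, 2 with a higher and 7 with a lower mean, with a median log2 difference of -0.08 (-0.18 with TMM factors). None passed, and 2 had an unadjusted p under 0.05 with limma and 2 with array weights. Mtf1, the zinc-sensing factor that binds the metal response core, measured 40.6, 48.1 and 42.1 CPM in Pax7 Cre ErT replicates 1, 2 and 3, against 36.99, 35.7 and 28.6 CPM in control replicates 1, 2 and 3 (log2 difference 0.36, adjusted p = 0.891 with limma). The zinc importer gene Slc39a14 measured 85.5, 87.2 and 87.7 CPM in Pax7 Cre ErT replicates 1, 2 and 3, against 100.5, 113 and 101.9 CPM in control replicates 1, 2 and 3 (-0.27, adjusted p = 0.895 with limma). Mt3 measured 5.57, 6.29 and 6.11 CPM in Pax7 Cre ErT replicates 1, 2 and 3, against 7.02, 7.54 and 6.91 CPM in control replicates 1, 2 and 3 (-0.22, unadjusted p = 0.265 and adjusted p = 0.900 with limma). In these 3 genes the groups did not overlap, with Mtf1 higher and Slc39a14 and Mt3 lower in Pax7 Cre ErT mice. Of all tested genes 8.69% were higher and 2.28% lower without overlap. Nothing is read from the 3, since they were named for the smallest unadjusted p in their list. Gclm, a subunit of the enzyme that starts glutathione synthesis, averaged 20.9 ± 3.09 CPM in Pax7 Cre ErT mice and 38.9 ± 24.8 CPM in control mice (SD, n = 3 each), with 66.9 CPM in control replicate 3. The log2 difference of Gclm was -0.69, -0.22 without that library and -1.09 without control replicate 2.

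**Figure D5:**
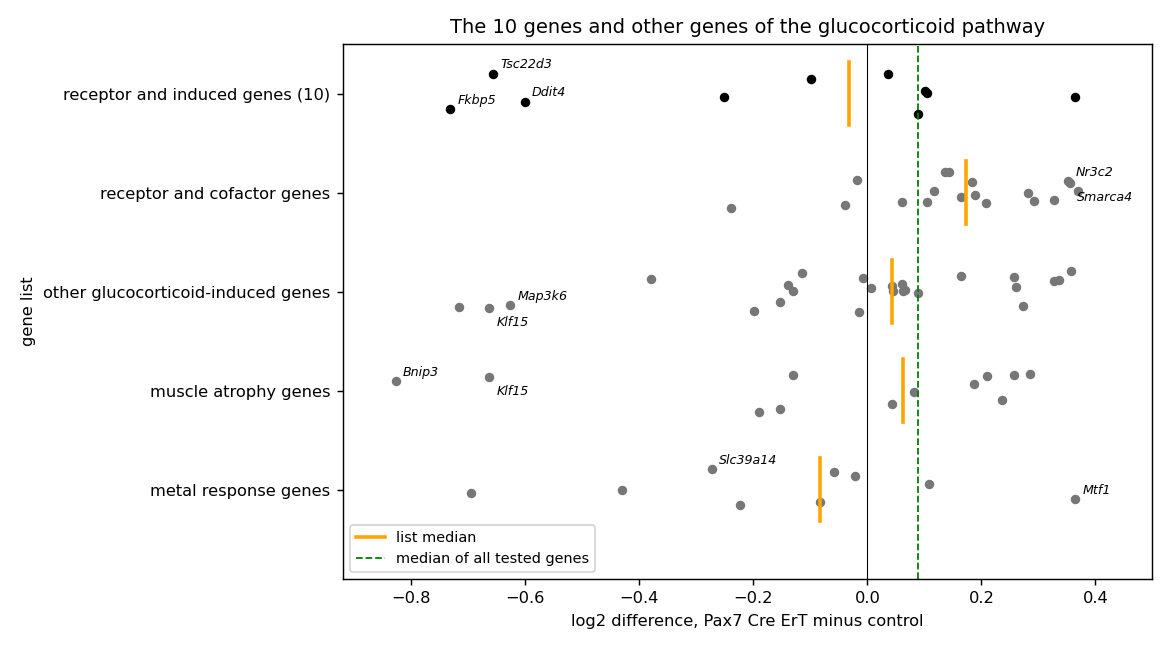
Log2 differences (Pax7 Cre ErT minus control) of the 10 genes and of the tested genes of the 4 other lists, a point per gene, with the median of each list in orange and that of all tested genes, 0.09, as a dashed line. The list medians are -0.03, 0.17, 0.04, 0.06 and -0.08 from top to bottom, and a gene in 2 lists is drawn in both.

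With limma 0 genes of the marker lists of other cells and of handling passed at an adjusted p under 0.05. Only 1 of all 14763 tested genes did (0.00677%), so nothing is read from that 0. Of all tested genes 68.0% were above 0, 5.52% had an unadjusted p under 0.05 and 8.69% were higher without overlap. These lists too were chosen with earlier results known, so their counts are a description. The part of those cells in the values of the 10 genes was not tested. The 7 erythroid markers in the table were all lower in mean in Pax7 Cre ErT mice, with summed levels of 16130 to 45590 CPM in Pax7 Cre ErT mice and 24310 to 119800 CPM in control mice. The 119800 CPM was that of control replicate 3. Control replicates 1 and 2, at 38560 and 24310 CPM, lay within the Pax7 Cre ErT range. With limma 1 of the 7 erythroid markers had an unadjusted p under 0.05, and 0 were without overlap. The 8 myofibre markers were all higher in mean, with summed levels of 1936 to 2698 CPM in Pax7 Cre ErT mice and 935 to 1575 CPM in control mice. Their median log2 difference was 0.83. With limma 7 of the 8 had an unadjusted p under 0.05, and 6 of the 8 were higher without overlap. All 6 mural markers were higher in mean, with sums of 8473 to 10650 CPM in Pax7 Cre ErT mice and 6533 to 8463 CPM in control mice, which nearly touched. All 10 dissociation stress genes were higher in mean too (8 with TMM factors, where Junb and Ier2 were lower, and 9 with haemoglobin-free scaling). Their sums overlapped, at 11680 to 16230 CPM in Pax7 Cre ErT mice and 8012 to 12010 CPM in control mice. In each of these 2 lists 2 genes had an unadjusted p under 0.05 with limma, and 2 were higher without overlap. The directions of the erythroid, myofibre and mural lists held for every tested member under the 3 other scalings, which all keep control replicate 3. Of 6 tested neutrophil markers 1 was higher and 5 were lower, with sums of the 7 in the table of 69.8 to 108.7 CPM in Pax7 Cre ErT mice and 91.1 to 126 CPM in control mice, where Ly6g was at 0 in some libraries. Of the 6, 2 were lower without overlap, against 2.28% of all tested genes. An unadjusted p under 0.05 was found for 1 of the 6 with limma and for 4 with array weights, against 5.52% and 7.59% of all tested genes. Adipocyte markers summed to 805 to 940.3 CPM in Pax7 Cre ErT mice and 466 to 1267 CPM in control mice, with Lep at 0 in some libraries and 1 of 3 tested markers higher. The sum does not stand for each marker: control replicate 3 had the lowest sum, 466 CPM. It also had the highest median of the 3 tested markers on the centred log2 scale, 0.61.

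The lists of endothelial, macrophage, fibro-adipogenic and satellite cell markers had summed levels that overlapped between the groups. They were 4180 to 5118 CPM in Pax7 Cre ErT mice and 3992 to 5439 CPM in control mice for endothelial cells, and 569 to 811 and 439 to 1151 CPM for macrophages. For fibro-adipogenic progenitors they were 2155 to 3799 CPM in Pax7 Cre ErT mice and 2225 to 3500 CPM in control mice, and for satellite cells 329 to 367.5 and 317 to 365 CPM. Clock genes, which follow the daily rhythm that the hormone also follows, summed to 1314 to 1825 CPM in Pax7 Cre ErT mice and 1289 to 1824 CPM in control mice.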

How the data were processed

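RNA of 6 mice was sequenced by the authors from strand-specific libraries. The deposited values are CPM, with 0.0001 added to each, read from the values: each library sums to 1000000 plus the added constant. The submitters' processing notes name Partek, DESeq2 and mm10 without a role. The aligner and counting rule are not given in the sources used here. Depth was estimated from the smallest step between low values. Of values up to 20 reads, 93.1% to 94.0% were whole within 0.05 read, below the 95% required, so no count test was run. Counting errors leave out every other source of error.

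The comparison used limma (version 3.58.1, R version 4.3.3) with a mean-variance trend and a pseudocount of 1 on the log2 scale, for genes at 1 CPM or more in 3 or more libraries. Differences are Pax7 Cre ErT minus control. The test was tried on simulated data. P-values set the difference between the groups against the spread within these groups of 3 and 3 mice. The spread of each gene was drawn toward a trend over all tested genes. The 10 genes and all lists were chosen with earlier results of these data known. From each of the 4 pathway lists, the 4 genes with the smallest unadjusted p were named. Replicate numbers follow record order and pair no mice. Gene ends are those of the table minus 1, since 11051 of 17013 matched genes ended 1 base past RefSeq. Sequences are RefSeq windows, and none was at hand for Nr3c1, Cebpd and Zbtb16. Alternatives were other pseudocounts, no filter, TMM (trimmed mean of M values, computed without weights), haemoglobin-free and quantile scaling, array weights and leaving out libraries.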

Additional observations from a re-analysis of the deposited data

How the results depend on the processing

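The number of genes called was 0 to 1 when a single library was left out, 2 with no filter on low values, and 2 without Pax7 Cre ErT replicate 1 and control replicate 3 together, an alternative chosen after seeing the data. It was 1 under the other alternatives run. These counts are out of 14763 genes tested, or 17030 with no filter. The 4 pathway lists held 0 called genes under each of the 14 alternatives, and with so few called nothing is read from that. The median log2 difference of the 10 genes, -0.03, was -0.13 with TMM factors, -0.166 to 0.009 when a single library was left out, and -0.13 without Pax7 Cre ErT replicate 1 and control replicate 3 together. TMM factors moved the median of all tested genes to -0.001. Of 350 single-gene values under the alternatives, 349 met a rule that differed between genes. The named genes of the pathway lists, which were tested, had to keep their direction and side of the threshold. The exception was Fbxo32, at -0.064 without Pax7 Cre ErT replicate 1 and control replicate 3 together. The lowest adjusted p of these named genes was 0.394 (Bnip3, limma with array weights), so none came near the threshold. The 10 genes, which had no test, only had to stay within 1 within-group SD, which allows a change of sign. The sign changed under 7 of the 14 alternatives for Sgk1, 3 for Nr3c1 and Mt2 each, 2 for Mt1 and 1 for Cebpd. The causes were not tested. No paired analysis was possible because the labels carry no replicate numbers shared between the groups. Depth limits the values of genes at a few CPM, Mt2 among them, which rested on an estimated 31 to 95 reads a library.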
